A study of Homo sapiens with 6 samples.

Results

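TPM4, TPM1, ACTA2 and VIM are 4 genes of the contractile and structural cytoskeleton, taken by symbol from a deposited table of 402 genes, and all 4 were in it. TPM4 and TPM1 encode tropomyosins, coiled-coil proteins that lie along actin filaments. ACTA2 encodes the smooth muscle form of actin, and VIM encodes vimentin, an intermediate filament protein. They were selected on the FPKM ratio and q by which the authors listed genes as higher in shYTHDC2, so their differences are described here and not tested.

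RNA was sequenced from CAL-27, a human line grown from a squamous carcinoma of the mouth, in 3 NC and 3 shYTHDC2 libraries that the labels number as biological replicates. shYTHDC2 is a line with a knockdown of YTHDC2, an RNA helicase that binds the RNA mark N6-methyladenosine, and NC is the comparison group, carrying the genotype label NC and no other description. No treatment or time point is given, and the labels do not say whether a line is 1 clone or a pool, or whether replicates came from separate cultures. Any error therefore measures only the spread between these libraries.

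In muscle, tropomyosin controls access of myosin to the actin filament. Outside muscle, different tropomyosins mark different sets of actin filaments, among them the stress fibres by which a cell pulls on its surroundings. Smooth muscle actin is the classical marker of smooth muscle and of myofibroblasts, and vimentin is the main intermediate filament of mesenchymal cells, where epithelial cells use keratins. Both are widely used as markers when carcinoma cells take on mesenchymal traits. Genes of actin and its binding proteins are classical targets of serum response factor, SRF, which binds a DNA element called the CArG box.

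The promoters are shown for that element, because 2 of the 4 genes hold it or a near match. RefSeq windows of 300 bases (250 before and 50 from the annotated start onward, build GRCh38.p14) matched all 4 genes, with 3 starts for TPM4, 2 for ACTA2 and 1 each for TPM1 and VIM. The windows below are chr19:16067288-16067587 on the plus strand for TPM4, chr10:88952724-88953023 on the minus strand for ACTA2, chr15:63048239-63048538 on the plus strand for TPM1 and chr10:17227991-17228290 on the plus strand for VIM. Each reads 5′ to 3′ along its gene, and capitals mark a CArG box or a match to it in which 1 of the 6 inner bases is not A or T.
TPM4: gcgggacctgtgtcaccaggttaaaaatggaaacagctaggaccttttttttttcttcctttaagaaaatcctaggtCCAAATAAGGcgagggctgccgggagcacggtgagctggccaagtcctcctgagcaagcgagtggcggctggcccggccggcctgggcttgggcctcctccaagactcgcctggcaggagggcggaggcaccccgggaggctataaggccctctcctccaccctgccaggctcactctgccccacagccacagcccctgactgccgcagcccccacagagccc
ACTA2: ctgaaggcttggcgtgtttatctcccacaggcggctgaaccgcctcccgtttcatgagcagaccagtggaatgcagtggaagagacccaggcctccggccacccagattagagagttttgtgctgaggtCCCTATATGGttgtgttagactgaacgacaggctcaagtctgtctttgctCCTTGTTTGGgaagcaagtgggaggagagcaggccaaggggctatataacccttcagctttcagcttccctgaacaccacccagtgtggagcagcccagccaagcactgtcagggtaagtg
TPM1: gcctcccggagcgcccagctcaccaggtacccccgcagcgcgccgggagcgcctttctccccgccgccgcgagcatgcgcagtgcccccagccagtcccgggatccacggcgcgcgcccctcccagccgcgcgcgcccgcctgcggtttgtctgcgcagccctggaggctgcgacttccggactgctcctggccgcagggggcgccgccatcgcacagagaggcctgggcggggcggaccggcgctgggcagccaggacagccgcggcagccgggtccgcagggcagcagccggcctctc
VIM: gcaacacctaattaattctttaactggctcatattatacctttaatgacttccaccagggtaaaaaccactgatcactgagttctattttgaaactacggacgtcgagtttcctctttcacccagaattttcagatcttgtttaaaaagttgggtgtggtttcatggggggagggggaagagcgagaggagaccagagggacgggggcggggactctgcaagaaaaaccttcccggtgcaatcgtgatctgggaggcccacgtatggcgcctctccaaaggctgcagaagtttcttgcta

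TPM4 held a full CArG box, CCAAATAAGG, from -173 to -164 bases before this start, the most upstream of its 3 annotated starts. A full CArG box on either strand was present in 1.29% of all 35116 promoter windows. ACTA2 held none, but at its downstream start it had 2 near matches, CCCTATATGG from -121 to -112 and CCTTGTTTGG from -71 to -62. Such near matches were present in 6.94% of all windows, and this looser form was searched only after ACTA2 was seen to lack the full box. The other 2 windows of TPM4, the upstream window of ACTA2, and the windows of TPM1 and VIM held neither form. The TPM1 window lies inside the gene, which GENCODE release 29 starts at 63042632, well upstream of it. The TPM4 windows also lie past the GENCODE start of that gene, 16067021. The sequence before those starts was not searched, so a lack of either form in TPM1 holds for this window only. The table gives 1 value per gene, so the start in use cannot be read from it.

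Of the other motifs, the SP1 word GGGCGG was found for all 4 genes, in 6 of their 7 windows, against 45.0% of all windows, and 2 of its matches in TPM1 overlap each other by 1 base. The SMAD word GTCTG was found in 2 windows of ACTA2 and in that of TPM1 (45.3% of all windows). The TEAD word GGAATG was found at the downstream start of ACTA2 (14.0%). The AP-1 word TGANTCA, the ZEB and SNAI word CACCTG and the TATA word TATAAA were in none of the 7 windows, and were in 7.71%, 20.6% and 11.5% of all windows. In base composition the windows printed above differed, with 78.3% G and C in TPM1, 63.0% in TPM4, 55% in ACTA2 and 48.0% in VIM, against a median of 58.7% over all windows.

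**Figure D1:**
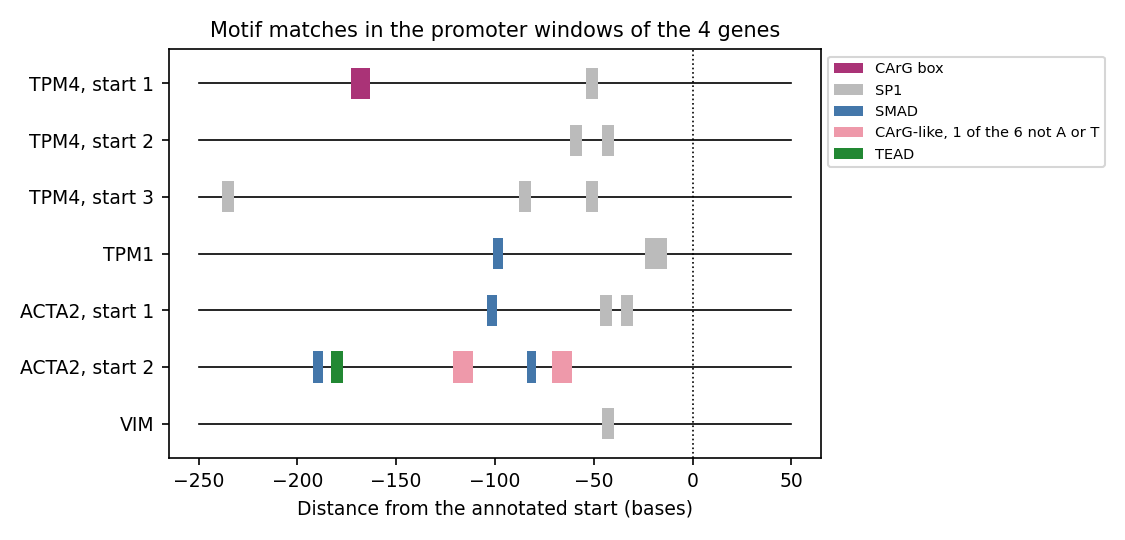
Motif matches on either strand in the 7 promoter windows of the 4 genes, plotted by distance in bases from each annotated start, with starts numbered along the direction of transcription. The full CArG box lies at the first start of TPM4, from -173 to -164, and both near matches lie at the second start of ACTA2.

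The authors' mark of higher and significant stands on 402 of 402 genes (100%), the 4 genes among them, with a smallest fold of 2.00 and a largest q of 0.0494 in the authors' deposited table. The level of YTHDC2, genes lower in shYTHDC2 and genes with smaller differences were not analysed here, so the knockdown was not checked against its target. Values are FPKM, fragments per kilobase of transcript scaled to library size, which compare genes per length. The depth of the libraries is not given in the sources used here. In these bulk libraries a change in the share of cells that express a gene and a change in RNA per cell cannot be told apart.

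TPM4 was by far the most abundant of the 4 genes and had the largest difference in FPKM. Its level was 14.8, 17.1 and 14.5 FPKM in NC replicates 1, 2 and 3, and 68.2, 66.3 and 65.3 FPKM in shYTHDC2 replicates 1, 2 and 3. The groups were far apart, and the lowest shYTHDC2 library lay 3.82-fold above the highest NC library. The means were 15.5 ± 1.4 and 66.6 ± 1.5 FPKM (mean ± SD of n = 3, used throughout), a ratio of 4.30. Across the 402 genes TPM4 ranked 8 by level in shYTHDC2, 15 by level in NC and 5 by the difference in FPKM. By ratio it ranked 67 among the 318 listed genes with signal in NC.

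TPM1 was a low gene with a smaller ratio. It stood at 0.481, 0.750 and 0.523 FPKM in the NC libraries and at 1.43, 1.52 and 1.44 FPKM in the shYTHDC2 libraries. The shYTHDC2 libraries were close together, NC replicate 2 was the highest of its group, and the groups did not overlap. The means were 0.584 ± 0.14 and 1.46 ± 0.049 FPKM, a ratio of 2.50, which ranked 170 among the 318 listed genes with signal in NC.

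Both tropomyosins were listed as higher, but TPM4 by the larger ratio. The level of TPM4 was 30.8, 22.8 and 27.8 times that of TPM1 in NC replicates 1, 2 and 3, and 47.5, 43.6 and 45.5 times in shYTHDC2 replicates 1, 2 and 3. The ranges of this ratio did not overlap. The other 2 human tropomyosin genes, TPM2 and TPM3, were not analysed here, so shares of all tropomyosin RNA cannot be given.

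ACTA2 had the lowest level of the 4 in shYTHDC2. It stood at 0.123, 0.153 and 0.210 FPKM in the NC libraries and at 0.455, 0.341 and 0.394 FPKM in the shYTHDC2 libraries. All libraries had signal, NC replicate 3 was the highest of its group, and the groups did not overlap. The means were 0.162 ± 0.044 and 0.397 ± 0.057 FPKM, a ratio of 2.45. By level in shYTHDC2 it ranked 258 of the 402 genes.

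VIM had the largest ratio and the widest spread of the 4. Its level was 0.289, 0.117 and 0.152 FPKM in the NC libraries and 1.05, 1.14 and 0.565 FPKM in the shYTHDC2 libraries. shYTHDC2 replicate 3 was the lowest of its group and NC replicate 1 the highest of its own, and the groups did not overlap, with 1.96-fold between those libraries. The means were 0.186 ± 0.091 and 0.918 ± 0.31 FPKM, a ratio of 4.93, which ranked 56 among the 318 listed genes with signal in NC. The coefficient of variation was 48.8% in NC and 33.6% in shYTHDC2, where TPM4 had 9.20% and 2.19%.

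**Figure D2:**
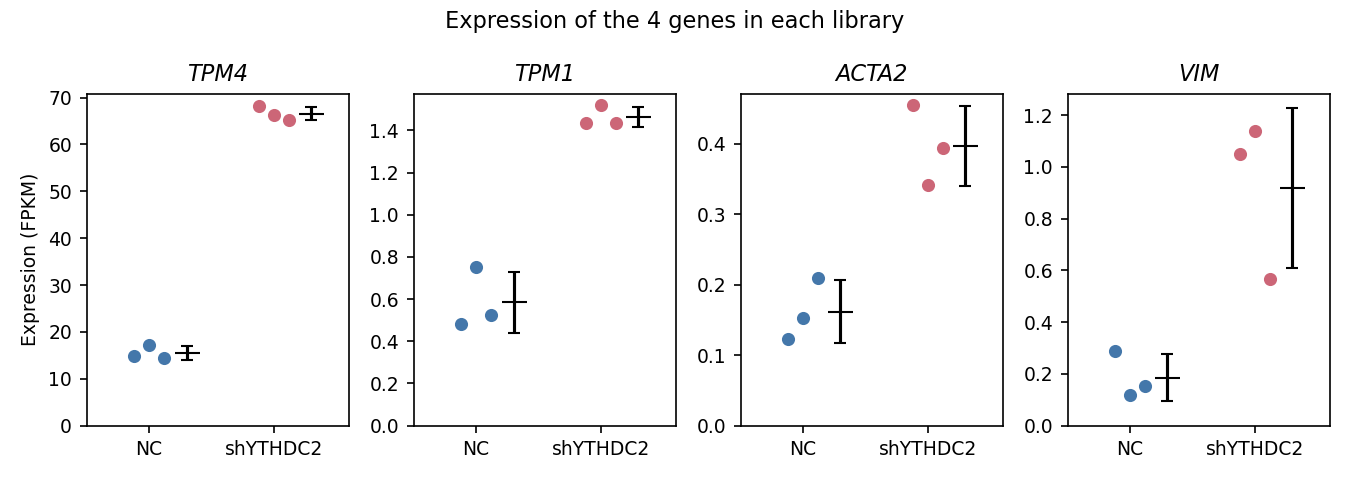
FPKM of each gene in the 3 NC and 3 shYTHDC2 libraries (points, each panel with its own axis from 0), with the group mean and SD as a black bar. The groups are separate in every panel, and the points of VIM are the most spread for their level.

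By level per length the order in shYTHDC2 was TPM4, TPM1, VIM and ACTA2, and no neighbours in that order overlapped. In NC the order was TPM4, TPM1, VIM and ACTA2 as well, but VIM (0.117 to 0.289 FPKM) and ACTA2 (0.123 to 0.210 FPKM) overlapped and did not differ beyond their spread. The level of VIM relative to ACTA2 ranged from 0.725 to 2.35 in NC and from 1.43 to 3.34 in shYTHDC2, and these ranges overlapped.

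The groups were separate, with no NC library reaching any shYTHDC2 library, for 4 of the 4 genes and for 364 of the 402 listed genes (90.5%). Since the table holds only genes selected as higher, nothing is read from that count. In the authors' deposited table the q-values were 5.42e-13 for TPM1, 6.97e-07 for VIM and 0.0107 for ACTA2, and TPM4 is listed at a q of 0. These are the values by which the genes entered the table.

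On the scale of log2(FPKM + 1), which understates the change of low genes, limma fitted over all 402 genes gave a difference of 2.04 for TPM4 (SE 0.066, 95% interval 1.89 to 2.19). The difference was 0.64 for TPM1 (0.42 to 0.86), 0.68 for VIM (0.38 to 0.99) and 0.27 for ACTA2 (0.12 to 0.41). The median of the 4 was 0.66, and that of all 402 genes was 0.53. Limma put 342 of the 402 genes past an adjusted p of 0.05 as higher (85.1%), the 4 genes among them, again a count that the selection sets. Scaling the libraries on the listed genes, which takes the typical listed gene as equal between groups, left TPM4 at 0.73 and VIM at 0.28. It turned TPM1 to -0.012 (95% interval -0.27 to 0.25) and ACTA2 to -0.013 (-0.16 to 0.13). Under that scaling limma put 36 of the 402 genes past its threshold as higher and 10 as lower. TPM4 was among those higher, and TPM1, ACTA2 and VIM were no longer past it. These calls come from the contrast that selected the genes and are given as a description. Only TPM4 and TPM1 reached a mean of 1 FPKM in a group, and the low levels of TPM1, ACTA2 and VIM make their differences depend on the pseudocount.

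**Figure D3:**
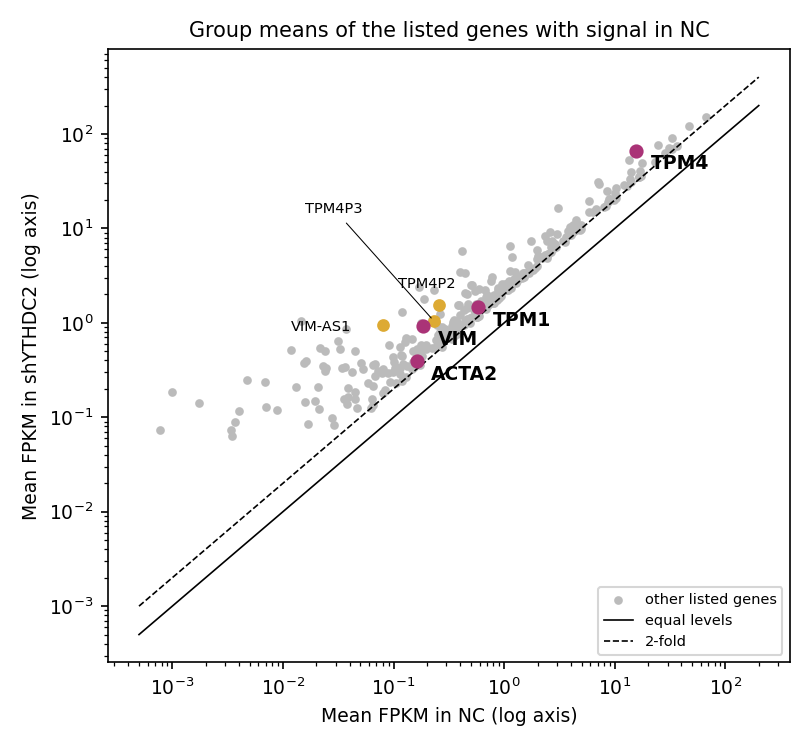
Mean FPKM in shYTHDC2 against mean FPKM in NC for the 318 listed genes with signal in NC, on log axes, with the 4 genes in purple and related loci in yellow. TPM4 lies among the most abundant genes with a ratio of 4.30. TPM1 and ACTA2 lie above the 2-fold line that bounds the table, with ratios of 2.50 and 2.45 near the median of 2.57 over these genes.

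Copies and overlapping genes bear on how far each value belongs to its gene. The pseudogenes TPM4P2 and TPM4P3 were also listed, at 0.116, 0.0348 and 0.626 FPKM in NC and 1.57, 1.20 and 1.90 FPKM in shYTHDC2 for TPM4P2. TPM4P3 stood at 0.186, 0.284 and 0.226 FPKM in NC and at 0.818, 0.918 and 1.39 FPKM in shYTHDC2. Both were higher in every shYTHDC2 library than in any NC library, as were 364 of the 402 listed genes (90.5%). The level of TPM4P3 was 1.26% to 1.66% of that of TPM4 in NC and 1.20% to 2.13% in shYTHDC2, so the ratio to TPM4 overlapped between groups. The same ratio for TPM4P2 was 0.203% to 4.31% in NC and 1.82% to 2.91% in shYTHDC2, but the annotation used here has another model of TPM4P2, so its sequence sharing with TPM4 was not assessed. In GENCODE release 29, 203 of the 699 words of 50 bases in TPM4P3 are also in a transcript of TPM4, so reads can be split between them. The transcripts of TPM4 and TPM1 share 0 such words with each other or with TPM2 and TPM3, and ACTA2 shares 0 with ACTA1, ACTC1, ACTG2, ACTB and ACTG1.

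VIM-AS1, a listed antisense gene, lies across the start of VIM on the other strand, overlapping it by 1727 bases, and its span includes the VIM promoter window printed above. VIM-AS1 stood at 0.0216, 0 and 0.218 FPKM in NC and at 0.552, 1.47 and 0.814 FPKM in shYTHDC2. VIM and VIM-AS1 did not follow the same order over the libraries: VIM was lowest in shYTHDC2 replicate 3, and VIM-AS1 in shYTHDC2 replicate 1. The level of VIM-AS1 was 0 to 1.44 times that of VIM in NC and 0.526 to 1.44 times in shYTHDC2, and these ranges overlapped. The libraries mark strand, but whether counting used it is not stated, and reads of this pair cannot be assigned with certainty. TPM1 overlaps TPM1-AS, and ACTA2 overlaps ACTA2-AS1, STAMBPL1 and FAS, each on the other strand. Genes with clone names also lie on the other strand, AC008894.3 over TPM4 by 3103 bases, AC079328.2 over TPM1 by 1887 bases and AL133415.1 over VIM by 1509 bases. Of all these overlapping genes, only VIM-AS1 was analysed here.

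In GRCh38 with GENCODE release 29, all 4 genes are annotated as protein-coding. TPM4 (ENSG00000167460) lies on chromosome 19 from 16067021 to 16103005 and TPM1 (ENSG00000140416) on chromosome 15 from 63042632 to 63071915. ACTA2 (ENSG00000107796) and VIM (ENSG00000026025) lie on chromosome 10, from 88935074 to 88991339 and from 17228259 to 17237593. Because YTHDC2 binds methylated RNA, the word GGACT, a common core of the methylation consensus, was counted in the longest coding transcript of each gene. Each of the 4 transcripts held 2, which is 1.48 per kilobase in ACTA2, 0.937 in VIM, 0.750 in TPM4 and 0.505 in TPM1. The median over 19430 protein-coding genes was 0.931 per kilobase, which lies within that range. A count of letters does not show methylation or binding.

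The genes with the most similar profiles were named by a rule, the smallest root mean square difference of log2 FPKM over the 6 libraries after subtracting each gene's NC mean, among 287 genes with signal in all libraries. For TPM4 these were PTX3, a soluble pattern recognition protein (0.0578), the zinc finger gene ZNF616 (0.105) and the cytokine IL6 (0.115). PTX3 stood at 7.04 ± 0.33 and 30.8 ± 2.1 FPKM, with a ratio of 4.37 against the 4.30 of TPM4. The ratios of ZNF616 and IL6 were 4.40 and 4.18. Since only the NC mean is subtracted, the distance keeps the difference between groups by which the genes were selected. Genes with similar ratios therefore come out near each other, and whether they vary together within a group was not tested. For TPM1 they were SPOCD1 (0.109), the insulin receptor adaptor GRB10 (0.112) and CDK5R2, an activator of the kinase CDK5 (0.120). For ACTA2 they were ANKRD36C (0.139), the membrane protein TM4SF1 (0.160) and RGS19, a regulator of G protein signalling (0.162). The nearest to VIM were farther off: IL4I1, an amino acid oxidase (0.215), the prolyl hydroxylase family gene P3H3 (0.357) and the calcium-binding protein gene CALB1 (0.407). None of the 4 genes was among the 3 nearest of another. The closest pair among them was TPM1 and ACTA2 (0.322), and the farthest was ACTA2 and VIM (0.980). The ratios of TPM1, ACTA2 and VIM were 2.50, 2.45 and 4.93.

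Other genes of the cytoskeleton were looked up in the table through gene lists. Of 19 gene lists with 257 symbols, 14 symbols were listed, the 4 genes included. The tropomyosin list had 2 of 4, the muscle actins 1 of 4 and the type III intermediate filaments 1 of 5, each of them 1 of the 4 genes. The actin assembly list had 1 of 34, LCP1, the actin-bundling protein L-plastin, at 2.88 ± 0.33 FPKM in NC and 6.84 ± 0.77 FPKM in shYTHDC2. The SRF list, which did not hold any of the 4 genes, had 1 of 20, CCN2, a matricellular protein gene, at 16.4 ± 1.1 and 35.2 ± 3.3 FPKM. LCP1 and CCN2 passed limma as higher, as 85.1% of the table did.

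The mesenchymal list had 4 of 23 besides VIM and ACTA2, which it did not hold: the collagen COL5A1, fibronectin FN1, lysyl oxidase LOX and the transcription factor ZEB1. All 4 passed limma as higher, as 85.1% of the table did, with a median log2 difference of 0.95 against 0.53 over all listed genes, on a scale that favours abundant genes. ZEB1, a repressor of epithelial genes, was a low gene as well, at 0.377 ± 0.088 and 0.787 ± 0.059 FPKM, a ratio of 2.09. The ratios of COL5A1, FN1 and LOX were 2.24, 2.07 and 2.11, so that all 4 lay below the 4.93 of VIM, the 2.45 of ACTA2 and the median ratio of 2.57 over the 318 listed genes with signal in NC. These differences between ratios were not tested, since all of them come from the contrast that chose the genes.

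Lists with 0 listed genes were cytoplasmic actins (4 symbols), other intermediate filaments (9), keratins (20), smooth muscle contractile genes (14), nonmuscle myosin and its regulators (16), tropomyosin partners and filament ends (18) and actin crosslinkers with focal adhesion genes (30). The marker lists of fibroblasts and myofibroblasts (14), leukocytes (12) and squamous epithelium (16) also had 0, so the labelled cell type could not be checked against its own markers. The smooth muscle and pericyte markers had 1 of 12, the adhesion molecule MCAM, at 3.84 ± 0.22 and 8.54 ± 0.48 FPKM. The endothelial markers had 2 of 10, the cadherin CDH5 at 1.52 ± 0.12 and 3.12 ± 0.41 FPKM and the adhesion molecule ESAM at 0.286 ± 0.10 and 0.736 ± 0.099 FPKM. Their part in the levels of ACTA2 and VIM was not tested. A count of 0 says only that a symbol was not among genes listed as at least 2-fold higher.

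The deposited gene ontology terms add genes outside these lists. Among 245 genes with terms used here, 20 had a term naming actin, tropomyosin, intermediate filaments or muscle contraction, 18 of them besides TPM4 and VIM, while the terms of TPM1 and ACTA2 were not used here. Limma put 18 of the 20 past its threshold. It put 85.1% of the whole table past it, but that share includes genes without terms, and the share over the 245 genes was not computed. The median log2 difference of the 20 was 0.67, against 0.61 over the 245 genes. The 6 highest by mean FPKM were CXCL1, TPM4, ABLIM3, LCP1, KRTAP2-3 and PHACTR2. ABLIM3, an actin-binding LIM protein, stood at 3.42 ± 0.58 and 7.41 ± 0.38 FPKM, and PHACTR2, a phosphatase and actin regulator, at 1.68 ± 0.067 and 3.37 ± 0.30 FPKM. CXCL1, a chemokine, carries such a term only for actin cytoskeleton organization, and KRTAP2-3 is a keratin-associated protein. TPM4 alone among the 245 genes carried the exact terms muscle contraction and muscle thin filament tropomyosin, while ANXA6, DOCK4 and KCNMA1, named after their terms were seen, carried more specific terms on muscle contraction. TPM4 and VIM shared 8 of the 23 terms of TPM4 and of the 41 terms of VIM, among them focal adhesion, which 9 of the 245 genes carried.

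**Figure D4:**
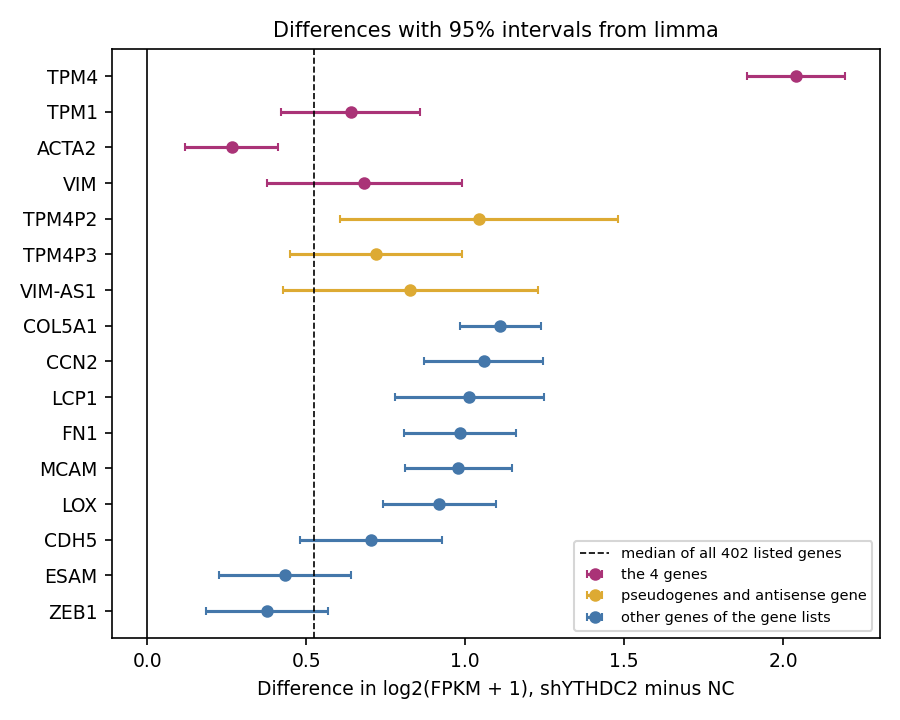
Difference in log2(FPKM + 1), shYTHDC2 minus NC, with 95% intervals from limma fitted over all 402 listed genes, for the 4 genes, the related loci and the other genes of the gene lists that are named here; the dashed line is the median of all listed genes, 0.53. TPM4 stands at 2.04, and the intervals of TPM1 and VIM include the median, while that of ACTA2 lies below it, and TPM1 and ACTA2 turn below 0 when libraries are scaled on the listed genes.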

How the data were processed

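RNA of 6 CAL-27 libraries was selected for poly(A), made into dUTP-marked paired-end libraries and sequenced on an Illumina NovaSeq, per the labels' protocols. Fastp, HISAT2, StringTie, edgeR and the build GRCh38 are named in the submitters' processing notes, without versions or roles. The table holds FPKM values computed by the authors, their fold (a ratio of mean FPKM), its log2 and their p-value and q-value columns, all as deposited, per the file headers. Column names gave each library's group and number.

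Here group means, SDs and ratios were computed, then log2(FPKM + 1) of all 402 genes was modelled on group alone in limma 3.58.1 (R 4.3.3), using a mean-variance trend and robust moderation, with Benjamini-Hochberg adjusted p-values read at 0.05. The step was tested on simulated data with levels raised above those of the table and changes in both directions. That test therefore does not cover genes as low as ACTA2 and VIM, or a table of genes selected as higher. The 4 genes, the gene lists and the tests were chosen with earlier results of these data known. Named genes were the 4 genes, related loci, listed members of the gene lists, the 3 nearest profiles of each gene and the 6 highest genes by annotation term. No pairing of libraries is stated. Promoters are RefSeq's (GRCh38.p14). A planned comparison of proteins was not made, and 1 of the 19 gene lists is not reported here. Depth is not given in the sources used here and was not recovered from the values, so no counting interval was computed.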

Additional observations from a re-analysis of the deposited data

How the results depend on the processing

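Other settings changed the size of the differences and, under 1 setting, the sign of those of TPM1 and ACTA2. The log2 difference with pseudocounts of 0.1 and 0.01 was 1.21 and 1.34 for TPM1, 0.93 and 1.26 for ACTA2, and 1.83 and 2.28 for VIM, because a smaller pseudocount shrinks low genes less. Scaling on the listed genes gave 0.73 for TPM4, 0.28 for VIM, -0.012 for TPM1 and -0.013 for ACTA2, with TPM4 the only 1 of the 4 still past limma, and left 46 genes past limma (36 higher, 10 lower) where 342 passed without it, since it takes the typical listed gene as equal between groups. Keeping only genes that average 1 FPKM or more in a group, 187 were fitted and 185 passed, with no value for ACTA2 and VIM. With each library left out in turn the difference was 2.00 to 2.11 for TPM4, 0.59 to 0.71 for TPM1, 0.24 to 0.29 for ACTA2 and 0.60 to 0.82 for VIM, and 282 to 352 genes passed. When replicate number entered as a block (the replicate block), the differences were 2.04, 0.64, 0.27 and 0.68 for TPM4, TPM1, ACTA2 and VIM, as without it, and 325 genes passed; deviations from the group means correlated at 0.0491, 0.162 and -0.00425 between libraries 1, 2 and 3 of the groups, so the numbers were not taken as pairs. Scaling within each group and limma without trend moved no difference beyond the replicate spread. Counting only the 250 bases before the start lowered the share of windows with a CArG box to 1.16%. Low levels limit ACTA2 and VIM most.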
